A study of Homo sapiens with 12 samples.

Results

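The comparison described here sets cells of the human kidney line HK-2 after 48 h with a high dose of the compound labelled Nnm against the same kind of cells after 24 h with it. It rests on 6 of the 12 arrays of the study, with Nnm replicates 1, 2 and 3 at 48 h paired by number with Nnm replicates 1, 2 and 3 at 24 h. The other 6 arrays, 3 control replicates at 48 h and 3 at 24 h, came from HK-2 cells given the vehicle alone, and they serve here as the measure of how culture time itself shows. HK-2 is an immortalized line from the proximal tubule, so all groups come from 1 cell line and hold no other cells of the kidney. All groups grew in the same medium, which held hydrocortisone, the growth factor EGF, selenite and insulin, and were treated close to confluence. The dose, the vehicle and the identity behind the name Nnm are not given in the sources used here. Each value is a log2 expression level of 1 probe set on 1 array, and a change of 1 on this scale is 2-fold.

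The proximal tubule takes up most of what the glomerulus filters, and for that reason many toxic compounds reach it first. Injured tubule cells typically switch on genes that handle oxidized or electrophilic molecules, many of them under the transcription factor NRF2, and genes that bind metals, restart or halt the cell cycle, and call in immune cells. Whether such genes go on changing, stay where they are or turn back between 2 times of exposure is what the comparison asks.

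The proximal tubule label was only partly met by the arrays. Of 20 proximal tubule markers on the array, 8 were above log2 4 on every Nnm array, among them PAX8, a transcription factor of the developing and adult kidney, the cadherins CDH2 and CDH6, and the peptidase DPP4. The other 12, which include the brush border enzymes ANPEP, GGT1 and MME, the uptake receptors LRP2 and CUBN, the water channel AQP1 and the transporters SLC34A1, SLC22A6 and SLC5A2, were above it on no Nnm array. Of the markers of other cell types, 2 of 12 for the distal nephron, 3 of 10 for fibroblasts, 3 of 5 for podocytes, 0 of 9 for endothelium and 0 of 6 for leukocytes were above log2 4 on every Nnm array. The vessel marker PECAM1 measured 4.69, 4.79 and 4.87 at 48 h and 3.72, 5.48 and 3.84 at 24 h, close to the filter level. In such bulk samples, fewer cells of a kind and less RNA per cell cannot be told apart.

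One of the 3 pairs stood apart from the others, and this touches every result below. The change from 24 h to 48 h had a standard deviation over probe sets of 0.62 in Nnm pair 1 and 0.65 in pair 3, but of 0.32 in pair 2, against 0.42, 0.37 and 0.41 in the control pairs. Changes of at least 2-fold were measured for 2319 probe sets in Nnm pair 1, 307 in pair 2 and 2516 in pair 3. Across the 22829 probe sets tested, the changes of pairs 1 and 3 correlated at r = 0.81, those of pairs 1 and 2 at 0.11 and those of pairs 2 and 3 at 0.05. The changes of Nnm pair 2 correlated at 0.33, 0.42 and 0.28 with those of the 3 control pairs, which correlated with one another at 0.58 to 0.60. These correlations describe probe sets, which are not independent and share the arrays of a pair. The replicates numbered 2 also carried a smaller difference from control cells: over the genes that Nnm shifted, defined further below, the median size of that difference was 0.62 in number 2, against 1.71 in number 1 and 1.66 in number 3. Why the cells numbered 2 differ was not tested, and key results are therefore given with and without them.

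**Figure D1:**
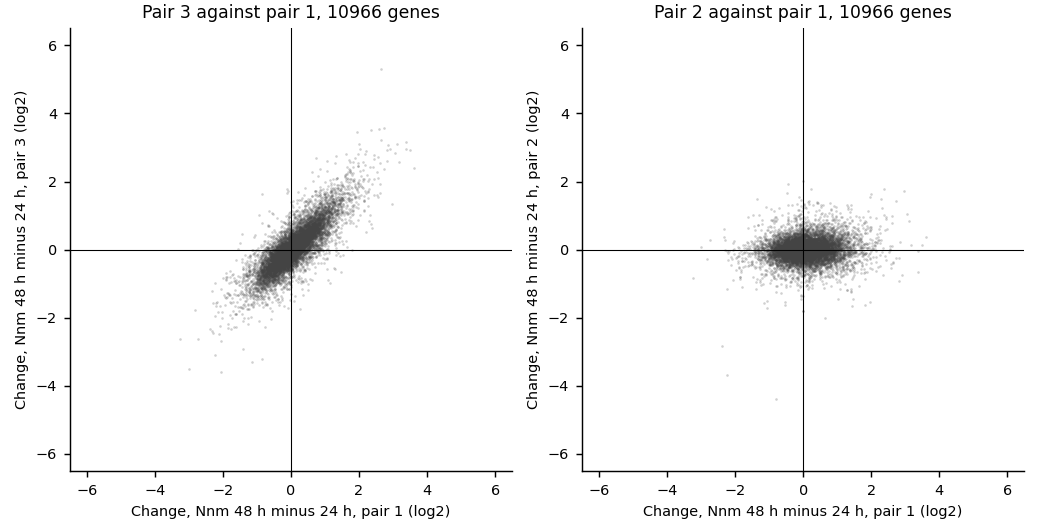
Change of each of 10966 genes between 48 h and 24 h of Nnm (log2, 48 h minus 24 h), with pair 1 on the horizontal axis and pair 3 (left) or pair 2 (right) on the vertical axis, 1 point a gene. Pair 3 spreads along the diagonal with pair 1, while pair 2 stays in a narrow band around 0.

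With all 3 pairs in the fit, 23 of 22829 probe sets passed the test between 48 h and 24 h of Nnm (limma, Benjamini-Hochberg adjusted p under 0.05), which is 0.101%. Of these, 20 were higher (0.0876%) and 3 lower (0.0131%) at 48 h, and they named 20 genes. Those that rose include MAN1C1, which trims the sugar chains of new glycoproteins, the phospholipase PLA1A, the amino acid transporter subunit SLC3A1, the secreted proteins WFDC2 and clusterin (CLU), the matrix genes COL14A1 and FBLN1, and the tubule basement membrane antigen TINAG. MYL9, a light chain of myosin in contractile fibres, and FXR2, an RNA-binding relative of FMRP, fell. All 23 changed in the same direction in each of the 3 pairs, with adjusted p between 0.0441 and 0.0470. In 10 of them no array at 48 h overlapped with one at 24 h, while over all probe sets 5.61% did not overlap and were higher, and 6.02% did not overlap and were lower.

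These calls lay at the edge of the threshold. A further 505 probe sets had an adjusted p from 0.05 to 0.06, 3058 (13.4%) were under 0.1, and 6854 (30%) had an unadjusted p under 0.05. With Nnm replicate 1 or 3 left out, or any control replicate, 0 probe sets passed. With Nnm replicate 2 left out, 8396 passed (36.8%), 4412 of them higher (19.3%) and 3984 lower (17.5%) at 48 h, and these included all 23. That replicate was singled out on these same arrays, and the changes of pairs 1 and 3 were known to be alike. Calls without it therefore describe those pairs and are not separate support. All control arrays stay in that fit and share its estimate of the spread. An SE or adjusted p from it therefore does not measure how well Nnm pairs 1 and 3 alone agree.

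Among the probe sets that passed, the largest rise was that of MAN1C1. Its level was 7.14, 5.65 and 6.88 at 48 h, against 4.84, 4.15 and 4.82 at 24 h, so that every array at 48 h lay above every array at 24 h. The mean difference was 1.95 ± 0.16 (SE), or 3.86-fold. MAN1C1 rose in control cells as well, by 1.33 (adjusted p = 0.0295), with both control groups below the filter level of log2 4. For PLA1A, the levels were 10.76, 9.61 and 10.57 at 48 h, against 9.37, 8.41 and 9.10 at 24 h, a rise of 1.36 ± 0.11 (SE). Control cells gained 1.70 in the same gene. In SLC3A1, a subunit of the kidney's cystine transporter, the levels were 8.05, 10.37 and 8.04 at 48 h and 7.14, 9.08 and 6.60 at 24 h. The Nnm replicates numbered 2 were the highest at each time, and the rise of 1.21 ± 0.12 (SE) was present in all pairs. SLC3A1 rose in control cells as well, by 0.95 (limma adjusted p = 0.0302).

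Clusterin is an extracellular chaperone known as a marker of tubule injury. Its called probe set measured 13.83, 13.71 and 13.67 at 48 h, against 12.96, 12.90 and 12.79 at 24 h. CLU rose by 0.85 ± 0.09 (SE) in that probe set, and by 0.83 in control cells (adjusted p = 0.0251). WFDC2, a secreted protease inhibitor measured clinically as HE4, had 9.08, 9.52 and 9.32 at 48 h, against 7.98, 8.43 and 8.13 at 24 h. It rose by 1.13 ± 0.11 (SE) without overlap between the times. In control cells it measured 0.54 higher at 48 h (adjusted p = 0.0614).

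MYL9 had 7.78, 8.02 and 8.12 at 48 h, against 9.17, 8.96 and 9.72 at 24 h, a fall of 1.31 on the log2 scale with SE 0.13. It fell in control cells too, by 0.90 (adjusted p = 0.0381). Of the 23 probe sets, 16 also passed in control cells, where 412 probe sets passed in all (1.8%), and 22 had a control mean of the same sign. The exception was LYRM4-AS1, an antisense RNA, which was higher by 0.89 with Nnm and lower by 0.24 in control cells (adjusted p = 0.201). FXR2 changed with Nnm by -0.94 and in control cells by -0.16 (adjusted p = 0.335). BACE1, which codes for the beta-secretase, had 4.72, 4.02 and 4.36 at 48 h, against 2.81, 2.78 and 2.79 at 24 h, a rise of 1.57. This probe set was above log2 4 in no other group, so it entered the test only through the 48 h Nnm arrays, where it was high. Its call is therefore not separate support for a rise. With control means of 2.71 at 48 h and 2.68 at 24 h, its control change says little. The arrays behind these calls are shown by pair in the plot of the called probe sets.

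Not every probe set of a called gene behaved alike. The called probe sets of RPL31 and RPL37, ribosomal protein genes, rose by 1.13 and 1.04. Other probe sets of RPL31 measured 0.06 and 0.28 higher and those of RPL37 0.02, 0.21 and 0.84 higher at 48 h, none of them past the test. For the kinase gene GALK2 the called probe set rose by 1.04 and the other measured 0.02 higher. The 4 probe sets of COL14A1 measured 1.12 to 1.38 higher, and those of BACE1 0.59 to 1.57 higher. Of the 23, 10 stood for their gene by being its brightest probe set. Among those representatives, 10 of 10966 genes passed (0.0912%).

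**Figure D2:**
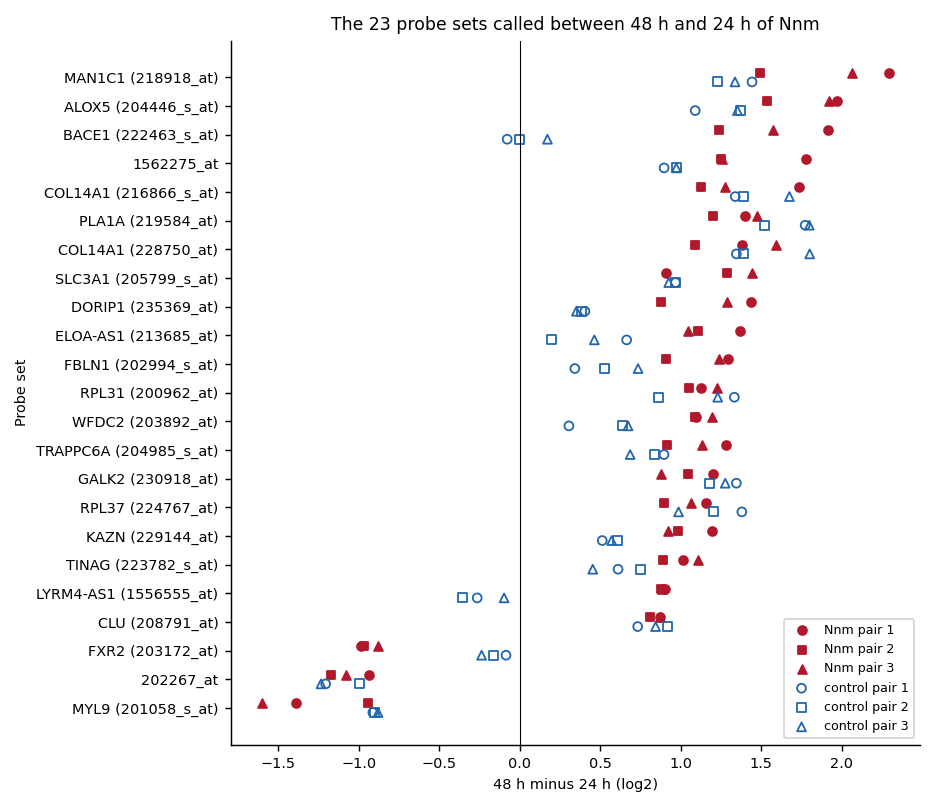
Change between 48 h and 24 h (log2, 48 h minus 24 h) of the 23 probe sets that passed in Nnm cells, with Nnm pairs as filled red symbols and control pairs as open blue symbols. Every filled symbol of a row lies on 1 side of 0, and in most rows the open symbols lie on that side as well.

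In no probe set did the change with Nnm pass as different from the change in control cells (limma, 0 of 22829, 0%), with a lowest adjusted p of 0.207, while 4046 (17.7%) had an unadjusted p under 0.05. Without Nnm replicate 2, 5660 did (24.8%). Gene lists written from textbook knowledge were used to describe the rest. They held 708 tested genes, of which 0 passed with all 3 pairs (limma), 268 had an unadjusted p under 0.05 (37.9%, against 31.7% of all genes), and many passed without Nnm replicate 2. For each list the counts are therefore how many members lay on 1 side in all 3 pairs, beside the 21.7% of all genes that were higher and 21.2% that were lower in all 3. In the control pairs these shares were 26.1% and 32.3%.

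Metallothioneins, small proteins that bind zinc, copper and cadmium, measured lower at 48 h in every pair. All 7 metallothionein genes tested lay lower in all 3 pairs, in a list of 9 whose other members are the zinc-sensing transcription factor MTF1 and the zinc exporter SLC30A1. The list's median change was -0.98 in pair 1, -0.38 in pair 2 and -0.78 in pair 3, against -0.18, -0.30 and -0.21 in the control pairs. Pair 2 was the closest of the Nnm pairs to the control pairs here too. In MT1X the levels were 13.19, 13.53 and 13.39 at 48 h, against 14.17, 13.99 and 14.18 at 24 h. The times did not overlap, and the difference of -0.74 had an adjusted p of 0.0545. MT2A, a family member present in most tissues, measured 14.11, 14.44 and 14.35 at 48 h and 14.82, 14.75 and 14.90 at 24 h (adjusted p = 0.0657). MT1M had pairs of -1.90, -0.54 and -1.41, with control pairs of -0.57, -0.30 and -0.60. Apart from MT1M, the metallothioneins, MT1X and MT2A included, are read by probe sets that may also bind RNA of close relatives, so they are not separate measurements. In control cells, 7 of the 9 list members were lower in all 3 pairs too. Without Nnm replicate 2, 8 of the 9 list members passed as lower and 0 as higher, where of all genes 40.2% passed, 18.5% as lower and 21.8% as higher.

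Metallothionein genes are known for metal response elements, short sites for MTF1 with the cores TGCACNC and TGCGCNC. Promoter windows of 300 bases, from 250 before to 50 after the start, were available for 3 of the 7 genes in RefSeq (GRCh38.p14), and matches on either strand, overlapping ones counted separately, are printed in capitals for the 2 whose levels are given above. All 3 windows held at least 2 matches, and 29.4% of all 27305 windows held at least 1. MT1X lies on chr16:56682220-56682519 on the plus strand with 4 matches, and MT2A on chr16:56608334-56608633 on the plus strand with 8.
MT1X: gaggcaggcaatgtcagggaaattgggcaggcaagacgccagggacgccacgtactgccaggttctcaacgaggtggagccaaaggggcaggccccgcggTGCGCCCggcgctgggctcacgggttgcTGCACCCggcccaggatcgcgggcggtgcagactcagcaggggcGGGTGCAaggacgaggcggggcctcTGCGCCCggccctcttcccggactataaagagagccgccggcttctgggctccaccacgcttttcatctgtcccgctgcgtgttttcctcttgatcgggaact
MT2A: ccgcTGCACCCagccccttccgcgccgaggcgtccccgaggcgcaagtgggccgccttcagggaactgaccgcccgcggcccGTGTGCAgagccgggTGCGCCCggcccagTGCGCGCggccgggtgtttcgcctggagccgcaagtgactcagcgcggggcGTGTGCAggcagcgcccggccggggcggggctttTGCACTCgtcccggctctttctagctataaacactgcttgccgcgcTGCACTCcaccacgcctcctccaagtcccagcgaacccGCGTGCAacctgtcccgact

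Genes under NRF2, which cells use to make glutathione and reduce oxidized proteins, measured lower at 48 h for most members in each pair. Some members differed widely between the pairs. Of 22 tested, 15, 15 and 14 were lower in pairs 1, 2 and 3, and 9 were lower and 3 higher at 48 h in all 3 pairs. The list medians were -0.17, -0.28 and -0.21, against 0.03, -0.10 and 0.09 in the control pairs. TXNRD1, the thioredoxin reductase, had 13.71, 12.64 and 13.71 at 48 h, against 14.09, 13.01 and 14.16 at 24 h. Its pair changes were -0.38, -0.37 and -0.45, with control pairs of 0.02, -0.02 and -0.03, and the adjusted p was 0.0661. TXNRD1 stayed well above control cells at both times, by 1.77 on average.

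A wider gap was measured in HMOX1, the enzyme that breaks down heme. It measured 9.05, 7.75 and 9.24 at 48 h, against 12.05, 7.67 and 12.74 at 24 h. Number 2 was near the control means of 7.89 at 48 h and 8.02 at 24 h, while numbers 1 and 3 lay above them at both times. The pair changes were -3.00, 0.08 and -3.50 (adjusted p = 0.0965). GCLM, which codes for the modifier subunit of the glutathione-making enzyme, had pairs of -1.62, -0.35 and -1.89. SRXN1, which repairs peroxiredoxins, had -1.69, 0.04 and -2.27, and the cystine transporter SLC7A11 -1.76, 0.14 and -2.33. In each of these, number 2 moved by far less than numbers 1 and 3. In NQO1, a quinone reductase, it was number 2 that moved, with pairs of -0.10, -1.09 and 0.01. Of the members that were higher in all 3 pairs, ABCC3, an exporter of conjugates, had 2.01, 0.20 and 1.92 in its brightest probe set, with mean changes of 0.14 to 1.38 over its 5 tested ones.

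Of the NRF2 list, 8 members passed as lower and 4 as higher without Nnm replicate 2, where 18.5% of all genes passed as lower and 21.8% as higher. In that fit the change of HMOX1 was -3.25 ± 0.17 (SE, adjusted p = 0.00109) and that of GCLM -1.76 ± 0.11 (SE, adjusted p = 0.00119), and both also differed from the change in control cells (adjusted p = 0.00389 and 0.00592). Of other iron genes, the transferrin receptor TFRC and the first enzyme of heme synthesis, ALAS1, had pairs of -0.96, -0.22 and -0.95 and of -0.91, -0.17 and -0.87. NRF2 binds antioxidant response elements, here searched as TGACNNNGC on both strands. The core was present in 13.6% of all promoter windows and in 6 of the 18 windows available for the list. The window of TXNRD1, chr12:104215529-104215828 on the plus strand, is shown with its 2 matches in capitals because the 3 pairs of TXNRD1 lay close together.
TXNRD1: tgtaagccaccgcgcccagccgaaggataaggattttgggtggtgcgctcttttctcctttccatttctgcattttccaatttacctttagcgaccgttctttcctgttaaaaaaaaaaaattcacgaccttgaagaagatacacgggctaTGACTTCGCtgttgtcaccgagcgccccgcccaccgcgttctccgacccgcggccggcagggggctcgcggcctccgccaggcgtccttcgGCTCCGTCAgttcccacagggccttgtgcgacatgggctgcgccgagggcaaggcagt

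**Figure D3:**
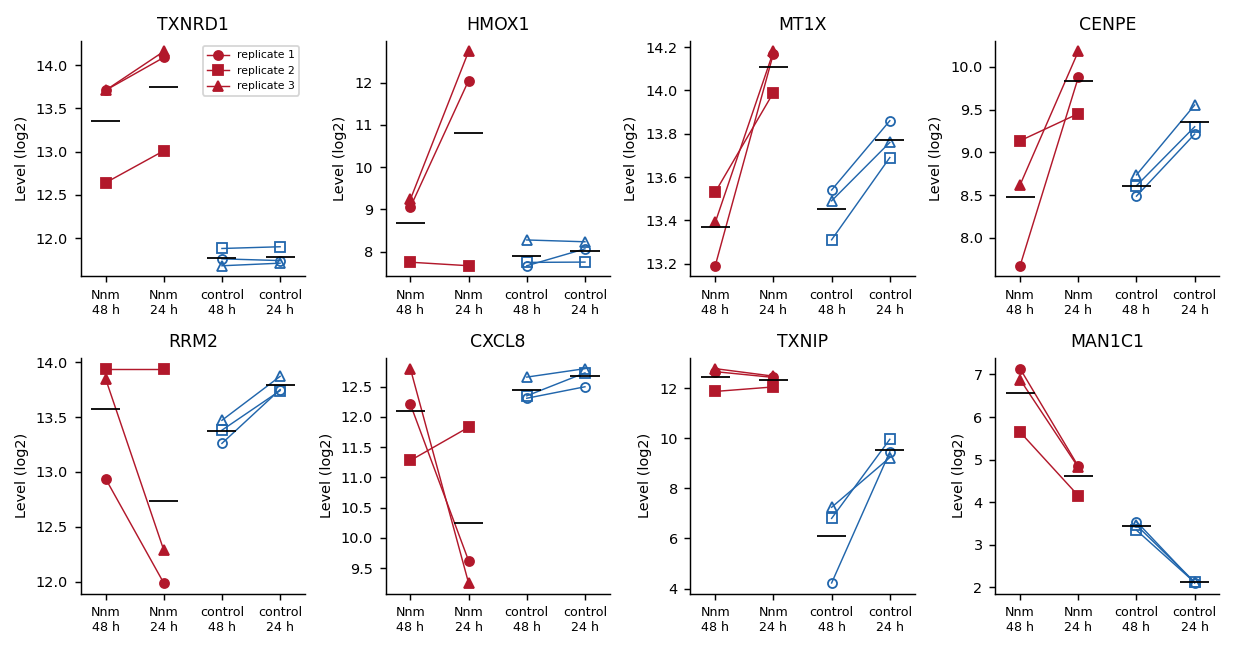
Levels (log2) of 8 genes on all 12 arrays, with lines joining arrays of the same replicate number, symbols marking the number and black bars the group means. HMOX1 is high at 24 h only in Nnm replicates 1 and 3, TXNIP stays level with Nnm while its control arrays differ between the times, and MAN1C1 is higher at 48 h on every line.

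Genes of mitosis and the spindle, which build and split the chromosomes' machinery during division, measured lower at 48 h in most pairs, treated or not. Of 37 tested, 19 were lower and 1 higher in all 3 Nnm pairs, and 36 were lower in all 3 control pairs. The list medians were -1.31, -0.07 and -0.59 in Nnm pairs 1, 2 and 3, against -0.57, -0.51 and -0.59 in the control pairs. In pair 1, 33 members lay below every control change, while in pair 2, 36 lay above every control change. CENPE, a motor protein of the kinetochore, had 7.67, 9.14 and 8.62 at 48 h, against 9.88, 9.45 and 10.18 at 24 h (adjusted p = 0.0731). KIF20A, a motor needed for cell separation, had pairs of -2.82, -0.27 and -1.76, and the mitotic kinase PLK1 -2.20, -0.09 and -1.64. Cyclin B1 (CCNB1) had -1.78, -0.11 and -0.64, and the proliferation marker MKI67 -1.36, -0.0031 and -0.39. CDC25B, a phosphatase that starts mitosis, was the member higher in all pairs, with 0.87, 0.14 and 1.00. With Nnm replicate 2 left out, 28 members passed as lower and 1 as higher, where 18.5% and 21.8% of all genes did, and 8 passed as more negative than the change in control cells, where 10.8% of all genes did.

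CDC20, which sends mitotic proteins to destruction, had 10.62, 10.89 and 11.04 at 48 h, against 12.13, 11.23 and 11.85 at 24 h. The times did not overlap, and the adjusted p was 0.0744. Many mitotic promoters carry the cell cycle genes homology region, with the letters TTTGAA. It was present on either strand in 20 of the 31 windows available for the list, and in 15.4% of all windows. CDC20 is shown with its 2 matches in capitals, from chr1:43358731-43359030 on the plus strand, as a member whose times did not overlap.
CDC20: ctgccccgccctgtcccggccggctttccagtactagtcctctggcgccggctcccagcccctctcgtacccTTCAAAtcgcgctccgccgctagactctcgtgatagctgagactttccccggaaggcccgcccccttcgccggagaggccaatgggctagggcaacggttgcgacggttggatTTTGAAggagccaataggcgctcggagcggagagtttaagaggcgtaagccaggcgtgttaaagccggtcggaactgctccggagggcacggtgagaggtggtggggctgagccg

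S phase genes, which copy DNA and supply its building blocks, measured higher at 48 h in pairs 1 and 3, unlike the mitotic genes. Of 35 tested, 30 measured higher at 48 h in Nnm pair 1 and 31 in pair 3, but 2 in pair 2, so that 1 was higher and 2 lower in all 3 pairs. In control cells, 31 were lower in all 3 pairs. The medians were 0.41, -0.24 and 0.58 with Nnm, against -0.55, -0.43 and -0.30 in control cells. RRM2, the inducible subunit of ribonucleotide reductase, had 12.94, 13.94 and 13.85 at 48 h, against 11.99, 13.94 and 12.29 at 24 h. Number 2 stayed near the level that control cells had at 24 h, 13.79 on average, whereas numbers 1 and 3 lay below it at 24 h. UHRF1, which helps copy DNA methylation, had pairs of 1.35, -0.31 and 1.29 against control pairs of -1.02, -0.67 and -0.68. The helicase loader CDC6 had 0.37, -0.53 and 0.68, with control pairs of -1.16, -0.94 and -0.80.

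Without Nnm replicate 2, 19 of the 35 S phase genes passed as higher and 3 as lower, where 21.8% and 18.5% of all genes did. Of the 35, 25 passed as more positive than the change in control cells, where 26.9% of all genes passed as different and 16.1% as more positive. In that fit UHRF1 changed by 1.32 ± 0.12 (SE, adjusted p = 0.0018) and CDC45 by 0.88 ± 0.10 (SE, adjusted p = 0.00281). Of 25 genes of homologous recombination and the Fanconi pathway, 10 passed as higher and 1 as lower in it, where 21.8% of all genes passed as higher and 18.5% as lower. PALB2, a recombination gene, had pairs of 0.93, 0.07 and 0.75, and FANCI, a clamp loaded at crosslinks, 0.81, 0.06 and 1.04. Of 24 excision and direct repair genes, 11 were higher in all 3 pairs, among them the scaffold XRCC1 with 0.90, 0.24 and 1.24. The glycosylase NEIL3 measured lower, with -0.79, -0.30 and -0.99. It was lower in control cells too, with pairs of -0.89, -0.93 and -0.85 (limma adjusted p = 0.0417).

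Cyclin D1 (CCND1), which links growth signals to the cell cycle, measured lower in every pair. It had 5.94, 5.34 and 7.08 at 48 h, against 7.33, 6.51 and 8.47 at 24 h (adjusted p = 0.0572), with control pairs of -0.69, 0.0018 and -1.35. CDKN1A, the p21 inhibitor induced by p53, had pairs of -0.11, -0.23 and -0.05, and MDM2, the p53 ligase, -0.41, 0.24 and -0.37. Of 24 p53 targets, 3 were higher and 4 lower in all 3 Nnm pairs, against 4 and 8 in all 3 control pairs. TIGAR and GADD45A were lower in all Nnm pairs, with -1.52, -0.44 and -1.03 and with -0.91, -0.35 and -0.95. Control pairs were -0.65, -0.27 and -0.50 for TIGAR and 0.52, -0.04 and 0.16 for GADD45A.

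Several other genes that measured lower in every pair also did so in control cells. MMP1, an interstitial collagenase, had 5.73, 3.73 and 6.48 at 48 h, against 8.11, 6.55 and 8.80 at 24 h, with control pairs of -4.67, -2.20 and -2.20. The neuropeptide gene GAL had pairs of -2.23, -3.68 and -1.94, against -2.29, -2.65 and -1.48 in control cells. MMP7, a protease of injured epithelium, had -1.80, -1.09 and -1.35, and the calcium-binding S100A2 -1.16, -1.57 and -1.17. SLCO5A1, of the organic anion transporter family, was different: pairs of -0.97, -0.99 and -1.20 stood against 0.05, 0.05 and 0.82 in control cells. The difference between these changes had an adjusted p of 0.222.

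Chemokines and inflammatory cytokines, the secreted signals that draw in immune cells, measured higher at 48 h in 2 of the pairs. Of 15 tested, 5 were higher and 1 lower in all 3 pairs, with medians of 0.78, 0.07 and 0.49 against -0.19, 0.05 and -0.14 in the control pairs. CXCL8, which attracts neutrophils, had 12.21, 11.28 and 12.80 at 48 h, against 9.62, 11.83 and 9.25 at 24 h. Numbers 1 and 3 were near the control mean of 12.44 at 48 h and far below that of 12.68 at 24 h, and number 2 lay under both. CXCL3 had pairs of 1.94, 0.07 and 3.46, and CCL20, which attracts lymphocytes and dendritic cells, 2.65, -0.37 and 5.30. IL1B, a pyrogenic cytokine, had 1.42, 1.31 and 0.49, but control pairs of 0.63, 2.06 and 1.36. The adhesion molecule VCAM1, from the list of injury genes, had 3.49, 0.13 and 2.94. Without Nnm replicate 2, 7 of the 15 passed as higher and 2 as lower, where 21.8% of all genes passed as higher and 18.5% as lower. In that fit CXCL8 changed by 3.06 ± 0.22 (SE, adjusted p = 0.00143), an SE that rests on the control pairs as well.

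Feedback genes of the ERK pathway and targets of YAP, which report growth factor and mechanical signals, were higher in all pairs for some members and lower for none. Of 23 immediate early and ERK feedback genes, 8 were higher and 0 lower in all 3 pairs. SPRY1, an inhibitor of receptor tyrosine kinase signals, had 8.57, 6.53 and 7.69 at 48 h, against 6.59, 4.88 and 4.59 at 24 h (adjusted p = 0.0545), with control pairs of 1.10, 1.06 and 2.05. DUSP6, the phosphatase that switches ERK off, had pairs of 1.56, 0.13 and 1.85. Of 17 YAP targets, 5 were higher and 0 lower in all 3 pairs, among them the scaffold genes AMOTL1 with 1.32, 0.46 and 0.83 and AMOTL2 with 0.96, 0.16 and 1.19. CCN2, a matricellular YAP target, had 1.38, -0.59 and 1.67. Among EGF-family genes, the receptors ERBB3 and ERBB2 had 0.60, 0.58 and 0.98 and 1.10, 0.21 and 1.12, while the ligand HBEGF had -1.83, -0.61 and -1.31, near control pairs of -1.15, -0.62 and -1.12.

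Mitochondrial respiration genes showed small differences that all pairs shared. Of 31 genes of oxidative phosphorylation, 22 were lower and 2 higher at 48 h in all 3 pairs. The medians were -0.20, -0.24 and -0.22 with Nnm, against -0.06, -0.12 and 0.05 in control cells. ATP5MC1, of the ATP synthase ring, had 7.99, 8.76 and 8.43 at 48 h, against 8.44, 9.26 and 8.96 at 24 h (adjusted p = 0.0602). NDUFA9, of complex I, had pairs of -0.55, -0.35 and -0.70. Pair 2 was as low as the others in this list. The separate list of the tricarboxylic acid cycle was mixed, with 9 of 24 lower and 2 higher in all 3 pairs and medians of -0.05, -0.15 and 0.03. Its member PDHA1, which feeds pyruvate into the cycle, had -0.53, -0.29 and -0.73, and PDP1 had 0.31, 0.40 and 0.35. Without Nnm replicate 2, 6 of the 31 passed as lower and 0 as higher, where 18.5% of all genes passed as lower.

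Protein-folding genes were lower in part. Of 19 chaperones of the endoplasmic reticulum, 10 were lower and 0 higher in all 3 pairs, with medians of -0.45, -0.02 and -0.50 against -0.08, -0.08 and 0.05 in control cells. CRELD2, induced by misfolded protein, had 8.51, 8.87 and 8.79 at 48 h, against 9.63, 9.48 and 9.66 at 24 h (adjusted p = 0.0545). Of 13 cytosolic heat shock genes, 8 were lower in all 3 pairs and 10 in all 3 control pairs, including the co-chaperone BAG3 with -0.81, -0.60 and -0.73. In the 29 genes of the ATF4 response to amino acid shortage, 6 were higher and 5 lower in all 3 Nnm pairs. In all 3 control pairs, 14 were higher and 0 lower. ATF4 itself had Nnm pairs of 0.40, 0.18 and 0.38, against control pairs of 0.61, 0.44 and 0.20. DDIT3, the CHOP factor of stress-induced death, had -0.12, 0.57 and -0.60 against control pairs of 3.02, 0.75 and 0.84.

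Lists of lipid, sugar and ribosome genes were mixed in direction. Of 22 cholesterol genes, 3 were higher and 3 lower in all 3 pairs, and of 10 fatty acid synthesis genes 2 and 3. Of 31 ribosome biogenesis genes, 8 were higher and 5 lower, with RRS1, which assembles the large subunit, at 1.20, 0.47 and 1.20. Of 33 genes of glycolysis and low oxygen, 6 were higher and 11 lower, with the glucose transporter SLC2A1 at -1.10, -0.38 and -1.45. Interferon response genes were higher in all 3 pairs for 12 of 22 and lower for 4. IFI44L had 1.53, 0.51 and 1.46 with control pairs of 0.71, 0.61 and 1.12, whereas ISG15, a ubiquitin-like modifier, had -0.69, -0.56 and -0.52 with control pairs of -0.69, -0.46 and -0.47.

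**Figure D4:**
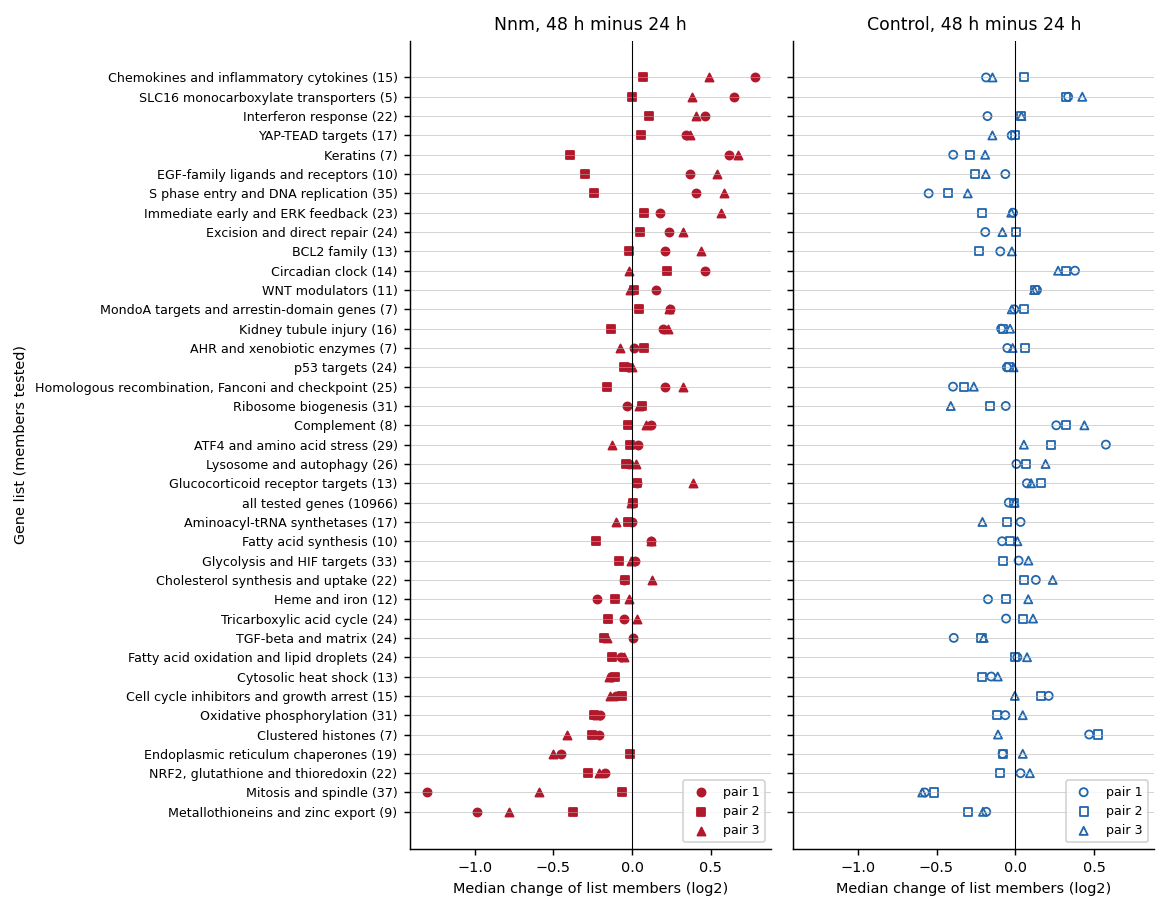
Median change between 48 h and 24 h (log2, 48 h minus 24 h) of the tested members of each gene list with at least 5 of them, in the 3 Nnm pairs (left) and the 3 control pairs (right). Metallothioneins and mitosis genes lie low with Nnm and chemokines high, more so in pairs 1 and 3 than in pair 2. Mitosis genes lie low in all 3 control pairs too.

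To follow what Nnm had done, genes were called shifted when Nnm minus the control of the same number averaged at least 1 on the log2 scale over both times, with the same sign in all 3 numbers. This held for 1005 of 10966 genes (9.16%), 596 higher and 409 lower with Nnm. Of these, 3 moved further along the shift and passed the test, 0 returned against it and passed, and 305 held (30.3%), with every pair within 0.5 and no call. The other 697 were in none of these classes. At an unadjusted p under 0.05 (limma), 227 measured in the direction of the shift and 178 against it at 48 h. Over all tested genes 52.3% had every pair within 0.5, and whether the share among shifted genes differs from it was not tested.

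The genes that moved further were MAN1C1 and PLA1A, higher with Nnm, and MYL9, lower with Nnm. All 3 moved in the same direction in control cells between the times, so further here means a change along the shift, not by itself a wider gap. The Nnm change minus the control change was 0.61 in MAN1C1 and -0.41 in MYL9 (limma adjusted p = 0.257 and 0.307). Their gaps thus measured wider at 48 h, without passing the test. In PLA1A the control cells gained more, and the gap was narrower at 48 h. By size alone, a rule added after the data were seen, 31 shifted genes moved further and 13 returned by at least 0.5 in every pair. Of all genes, 1.37% were higher and 0.684% lower by that size in every pair. Among the 31 were UCA1, a long non-coding RNA of epithelial tumours, with pairs of -2.06, -0.89 and -2.67 against 0.06, -0.22 and 0.28 in control cells, and ERBB3. Among the 13 were OSGIN1, an oxidative stress gene under NRF2, with -1.40, -0.50 and -2.91, the kinase JAK2 with -0.77, -1.08 and -1.36, the elongation factor ELL2 with -1.27, -0.96 and -1.62, and the growth factor VEGFB with 0.92, 0.81 and 0.60. OSGIN1, and LRRC61 with pairs of 1.31, 0.52 and 1.58, lay just inside that limit in number 2. In number 2, OSGIN1 lay below log2 4 at both times, and its shift was 0.17, that of ELL2 0.11. Control pairs were -1.02, 0.04 and -0.66 for ELL2 and 0.41, 0.67 and 0.38 for VEGFB, whose Nnm mean at 24 h was 3.61. They were 0.0049, 0.08 and 0.52 for JAK2 and -0.20, -0.32 and 0.09 for OSGIN1. So returned means a change against the shift, not by itself a narrower gap.

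TXNIP, an arrestin-domain protein that binds thioredoxin and whose gene responds to glucose, held. It measured 12.66, 11.87 and 12.78 at 48 h, against 12.43, 12.05 and 12.48 at 24 h. In control cells the level was 6.09 at 48 h, against 9.55 at 24 h on average, with pairs of -5.23, -3.16 and -1.99 (adjusted p = 0.0406), so its distance from control was wider at 48 h although treated cells stayed level. The complement receptor C5AR1 had 8.91, 6.36 and 8.54 at 48 h, against 8.94, 6.67 and 8.88 at 24 h, while control cells gained 0.86, 0.57 and 1.25. TPPP, a tubulin-binding gene, had 10.29, 4.20 and 9.31 at 48 h and 9.80, 3.79 and 9.35 at 24 h. In number 2 it was near the filter level at both times, with a difference from control of 0.81.

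Among genes that held a lower level, CCND2, a D-type cyclin, had 8.30, 8.73 and 8.47 at 48 h, against 8.16, 9.03 and 8.92 at 24 h, and lay 2.11 below control cells. POP1, which processes RNA as part of RNase P, had 3.73, 6.28 and 4.98 at 48 h and 3.72, 6.39 and 4.69 at 24 h. B3GALT6, a glycosyltransferase of proteoglycans, averaged 7.31 at 48 h and 7.37 at 24 h in its brightest probe set, while its other one measured 0.83 higher at 48 h. Of 5 shifted genes of the ATF4 list, 4 held, namely CEBPG, SLC1A4, SLC1A5 and VEGFA. These lay above control cells, as did TXNRD1, the 1 of 7 shifted genes of the NRF2 list that held. Both shifted genes of the fatty acid synthesis list, FASN and SREBF1, held at a level below control cells. SLC16A14, a monocarboxylate transporter family member with a mean shift of 6.83, had 9.85, 8.05 and 9.48 at 48 h, against 10.62, 7.53 and 10.75 at 24 h, and had no class, since its pairs lay outside 0.5 and it did not pass the test. PLK2, a polo-like kinase below control by 2.14, had pairs of 0.71, -0.56 and 1.72, and ATF3, a stress-induced repressor, -1.47, 1.03 and -1.29.

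**Figure D5:**
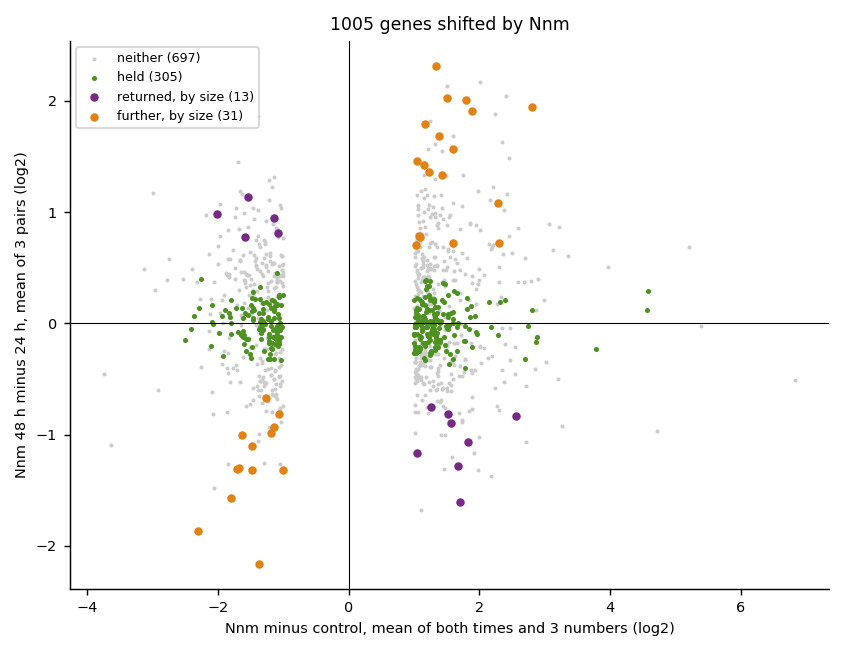
Mean change between 48 h and 24 h of Nnm (vertical, log2) against the mean difference between Nnm and control cells over both times (horizontal, log2) for the 1005 shifted genes. Green points held, orange and purple points moved further or returned by at least 0.5 in all 3 pairs, and grey points had no class. Of the orange and purple points, 41 have no class under the rule that also asks for the test.

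By pair, the shifted genes moved more in numbers 1 and 3. Of the 1005, 133 moved at least 2-fold further and 74 at least 2-fold toward control in pair 1, 158 and 96 in pair 3, and 20 and 19 in pair 2. The share within 0.5 was 49.8% in pair 1, 80.6% in pair 2 and 47.7% in pair 3, against 70.1%, 75.3% and 69.8% of the same genes in the control pairs. The median movement along the shift was 0.03, 0.02 and -0.0014 in the 3 Nnm pairs.

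Markers of tubule injury and identity were mixed. HAVCR1, which codes for a kidney injury molecule, had 9.74, 11.58 and 10.55 at 48 h, against 10.35, 11.61 and 10.71 at 24 h (adjusted p = 0.225). Osteopontin (SPP1), a secreted phosphoprotein, had 14.84, 15.13 and 14.89 at 48 h and 15.10, 15.14 and 15.02 at 24 h, and its other probe set measured 0.21 higher at 48 h. Of 16 injury genes, 4 were higher and 5 lower in all 3 pairs. DPP4, a peptidase of the brush border, had 12.58, 13.30 and 12.67 at 48 h, against 11.43, 12.66 and 11.61 at 24 h (adjusted p = 0.0545), with control pairs of 0.40, 0.31 and 0.45. The brightest probe set of CDH6 had pairs of 2.01, 0.29 and 2.05 against -0.44, -0.34 and -0.30 in control cells, but the mean changes of its 6 tested probe sets ranged from -1.29 to 1.45. The sodium channel subunit SCNN1A, a distal nephron marker, had 1.09, 0.25 and 1.61, and its other probe set measured 0.02 higher on average. GDF15, a stress cytokine, had -0.05, 0.81 and -0.38.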

How the data were processed

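RNA of 12 cultures of HK-2 cells was measured on Affymetrix arrays. The deposited log2 values were made by the authors with GCRMA, per the submitters' processing notes, and which arrays were normalized together is not stated there. The table held 54675 probe sets, array medians ran from 2.91 to 2.98, and the number of arrays limits the precision. Probe sets above log2 4 on at least 3 of 12 arrays were tested, without 62 control probe sets, which left 22829. A gene was read from the probe set of highest mean that names it alone, which gave 10966 genes; names come from the platform annotation, in which 19986 tested probe sets name 1 gene, 960 several and 1883 none.

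The values were fitted with limma 3.58.1 in R 4.3.3, with 6 blocks for treatment and replicate number and a time term within each treatment (4 residual degrees of freedom), and p-values were adjusted by Benjamini-Hochberg over all tested probe sets. The replicate numbers come from the labels. Deviations of same-numbered arrays from their group means correlated at 0.162 to 0.669 in all 18 pairs, and those of differently numbered arrays at -0.655 to 0.372, so the numbers were taken to pair the arrays. The labels call the replicates biological. The fit was tested on simulated data with the same noise level for every probe set and array. No simulated pair stood apart, so that test does not bear on how the calls depend on Nnm replicate 2. Alternatives changed the block, the arrays in the fit, the filter, the scaling, the moderation, the class limits and each replicate.

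The comparison, its members and the 45 gene lists (935 entries, 722 tested) were chosen with earlier results of these data known. Genes to be named were the largest called changes in each direction at a brighter mean of at least log2 6, or the 10 with the largest smallest-pair change where fewer than 5 were called, up to 4 members of each list (the 2 of lowest p where fewer than 2 were called), the genes of each class with the largest change or shift, and 16 fixed genes. Other list members named were chosen after their values were seen. Promoter windows come from RefSeq (GRCh38.p14).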

Additional observations from a re-analysis of the deposited data

How the results depend on the processing

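The count of 23 called probe sets between 48 h and 24 h of Nnm depended on most choices. It was 0 with no replicate block, 0 with a replicate block shared by Nnm and control arrays, and 0 with the 6 Nnm arrays alone, where the lowest adjusted p was 0.297. It was 58 with no filter, 543 with a filter at log2 6, and 1181 with a trended and robust variance. An adjusted p under 0.1, added after the data were seen, gave 3058. Centring gave 20 and quantile normalization 23. Leaving out replicates gave 0 to 8396: 8396 without Nnm replicate 2, and 0 without Nnm replicate 1 or 3 or without control replicate 1, 2 or 3. Of the 23, 11 remained called with no filter, 18 with the stricter filter, 19 after centring, 20 after quantile normalization, and 23 with the trended variance. The 412 control calls became 0 with no replicate block, 12 with the shared block, 2029 with control arrays alone, 208 with no filter, 693 with the stricter filter, 1024 with the trended variance, 1649 at an adjusted p under 0.1, and 0 without any 1 control replicate. The difference from control, at 0 calls, gave 1 with no filter, and 0 to 5660 when replicates were left out, with 5660 without Nnm replicate 2. Genes that moved further numbered 1 at a shift of at least 2, 0 with calls from the fits with no block or with Nnm arrays alone, and 31 by size, where 13 returned. Genes that held numbered 1097 and 22 at shifts of at least 0.58 and 2, and 123 and 684 within 0.3 and 1. Of 129 named genes, 122 kept their direction in every setting run. With a replicate left out, the change ranged from -0.14 to 0.063 for DCN, -0.17 to 0.081 for B3GALT6, -0.051 to 0.15 for POP1, -0.063 to 0.075 for C1orf116, -0.087 to 0.054 for CAPN5, -0.21 to 0.38 for GDF15 and -0.36 to 0.23 for DDIT3. C1orf116 was also -0.0090 after centring and -0.053 after quantile normalization. Apart from the fewer samples or genes in a fit, the cause was not tested.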
